A study of Mus musculus with 1183 samples.

Results

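Interleukin 6 and its relatives are secreted proteins that signal through a shared receptor chain. The 6 genes of this system described here are the ligands Il6, Osm and Lif, the receptor chains Il6ra and Il6st, and the feedback gene Socs3. They were taken by symbol and make up 6 of the 18072 genes in the count table, and the rule that chose them used no measured value, although earlier results of these data were known. All 6 had reads and passed the filter on low counts.

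Mice 7 days after birth, both exposed to hyperoxia, an excess of oxygen that injures the growing lung, gave the cells of their distal lung. Single cells were sorted into plates, and each sample is 1 cell, 598 of them from 1 female and 585 from 1 male mouse. Both animals had the same treatment, animals in normal air were not analysed here, and genotype and strain are not given in the sources used here. All but 10 cells came from the gate for CD45, the surface protein of white blood cells, and the labels name 16 cell subtypes. The animal is the replicate, so each subtype has n = 2, the animals also differ in sex, and a difference between them cannot be told apart from a sex difference.

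Interleukin 6 binds the receptor chain encoded by Il6ra, and the pair then engages gp130, the signalling chain encoded by Il6st. Oncostatin M, encoded by Osm, and leukemia inhibitory factor, encoded by Lif, also signal through gp130, each together with a partner chain of its own, encoded by Osmr and Lifr. Janus kinases on gp130 activate the transcription factor Stat3. Socs3 is a target of Stat3 and its protein binds gp130 and dampens the signal. Il6ra protein can be shed from the surface by metalloproteases, so that cells with gp130 alone can respond to the soluble complex. In the lung these cytokines are known for acute-phase and repair responses.

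Levels are the reads of a gene relative to all reads of the subtype in 1 animal, after summing its cells, on the usual CPM scale. Where 2 values follow each other, the female comes first and the male second. A cell was counted as having a gene when it held at least 5 of its reads. CPM takes no account of gene length, so levels were compared between cells and never between genes. In a summed library, fewer cells with a message and less message per cell give the same level, which is why shares of cells are given beside the levels. Depth ran from 16753 to 7560179 reads per cell. The median was 589006 reads in neutrophils and lay between 914171 and 1569766 in the other 14 tested subtypes. The labels were checked against 4 markers for each of 13 subtypes. All 4 markers were highest in the labelled subtype in both animals for 8 of them, among these basophil, mast cell and neutrophil. Only 2 of 4 were for IL cell and for Mac V. Mac II and mast cell II had no marker list of their own. Mac II was left out when Mac V was checked, and mast cell II when mast cell was checked.

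The regulatory sequence before the genes is shown because Stat3 and the AP-1 factors (Fos and Jun) are textbook regulators of this system. RefSeq promoter windows on GRCm38.p6 were found for 5 of the 6 members, and Osm was not among them. The 250 bases before each start were searched on both strands for the STAT motif TTCNNNGAA and the AP-1 motif TGANTCA, which do not overlap here. Of these 5, Socs3 alone held the STAT motif, at -154 from the start. Il6 and Lif held the AP-1 motif, at -249 and -228. In all 32851 promoter windows, 8.30% held the STAT motif and 7.81% the AP-1 motif, so neither is rare, and a match is a description and not a bound site. These shares count matches over the whole window, which also holds bases after the start, where the 5 members had no match. The stretches around the matches follow, 5′ to 3′ on the strand of the gene, with the motif in capitals. They lie at chr11:117969472-117969560 (minus strand) for Socs3, chr5:30012864-30012911 (plus strand) for Il6 and chr11:4257318-4257386 (plus strand) for Lif.
Socs3: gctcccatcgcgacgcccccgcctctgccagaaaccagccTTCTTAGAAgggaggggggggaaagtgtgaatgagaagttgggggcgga
Il6: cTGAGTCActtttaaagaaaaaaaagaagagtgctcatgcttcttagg
Lif: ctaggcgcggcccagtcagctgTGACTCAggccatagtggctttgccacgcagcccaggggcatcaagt

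The first question was whether the 6 genes differed between cell subtypes at all. In edgeR's quasi-likelihood test over 15 subtypes and 30 summed libraries, all 6 members were called at a Benjamini-Hochberg adjusted p under 0.05. Of the 15600 genes tested, 34.3% were called in the same test, so a call by itself does not set the members apart. The edgeR adjusted p was 5.32e-05 for Il6, 0.000642 for Osm, 0.00437 for Il6ra, 0.00799 for Socs3 and 0.0183 for Lif. It was 0.0366 for Il6st, and this call was lost with the animal as a block (adjusted p = 0.0514) and in 15 of the 21 alternatives run. The 2 animals per subtype and a biological coefficient of variation of 1.15 between them limit the tests of single pairs of subtypes given below.

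**Figure D1:**
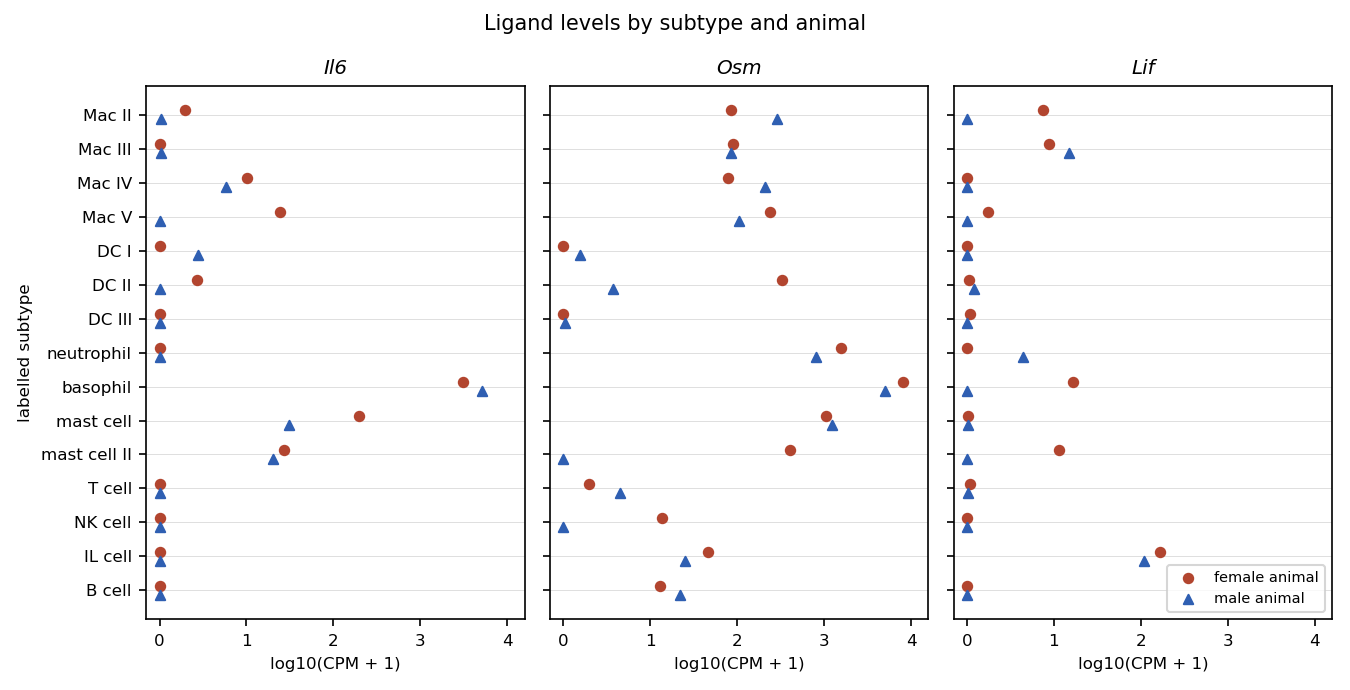
Level of each ligand in the 15 tested subtypes, as log10(CPM + 1), with 1 point per animal (circle female, triangle male). Il6 and Osm are highest in basophils in both animals, and Lif is highest in the cells labelled IL cell in both.

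Il6 was read almost entirely in basophils, rare granulocytes known for type 2 responses. Its level there was 3064 and 5111 CPM (4088 ± 1447, SD, n = 2), and 31 of 34 and 19 of 19 basophils had the gene. The 53 basophils held 90.6% of the Il6 reads of the female and 98.4% of those of the male. Basophils lay above every other subtype in both animals, with no overlap.

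Within basophils Il6 was broad rather than confined to a few cells. Single cells of the female ran from 0 to 12858 CPM with a median of 1743 CPM, and those of the male from 328.4 to 12277 CPM with a median of 3817 CPM. The cell with the most Il6 reads gave 16.04% of the female's and 20.6% of the male's basophil reads. On the 2 plates of the female the basophil level was 4367 and 2345 CPM. On those of the male it was 6135 and 3927 CPM. Plates of 1 animal thus lay about as far apart as the animals did.

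Mast cells, the tissue-resident relatives of basophils, came second for Il6 in both animals. The level was 198.1 and 30.1 CPM, from 14 of 39 and 5 of 20 cells. The mast cell with the most Il6 reads supplied 37.6% of the female's Il6 reads, and the level without that cell was 125.6 CPM. Cells labelled mast cell II followed with 25.9 and 19.4 CPM, from 2 of 14 and 1 of 8 cells. The 4 mast cell markers summed to only 311.3 and 463.8 CPM in them, against 191357 and 192305 CPM in mast cells. The name mast cell II is thus used here as a label only.

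In macrophages and dendritic cells Il6 was confined to single cells. Mac V, whose monocyte markers Plac8, Ly6c2, Ccr2 and Ace were all detected, had 22.98 and 0.0217 CPM. A single cell gave 96.3% of the female's reads. Mac IV had 9.23 and 4.85 CPM, while the levels in Mac II, DC I and DC II were at most 1.74 CPM in either animal. Mac III, the alveolar macrophages by their markers, had 0.0239 and 0.0340 CPM, and none of the 390 cells reached 5 reads.

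No Il6 read was found in T cells, NK cells, IL cells, B cells or DC III of either animal. In T cells that allows at most 0.0810 and 0.125 CPM, the level that 3 reads would give. The limit on the share of T cells with the gene was 11.5% and 15%. These limits cover counting error only, and reads without molecular identifiers are not independent molecules. In the order of mean levels, mast cell II and Mac V overlapped between animals, as did Mac V and Mac IV, and DC I, DC II and Mac II, while basophil and mast cell were each separate from the next.

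In all, 32 cells outside the basophils had Il6, from 13.7 to 4601 CPM. Of these, 19 were mast cells, 3 mast cell II, 5 Mac IV, 2 Mac V and 1 each Mac II, DC I and DC II. Mcpt8, the defining basophil protease, had no read in the 10 that were neither mast cell nor mast cell II. It had reads in 2 of the 19 mast cells and 1 of the 3 mast cell II. All 4 basophil markers (Mcpt8, Prss34, Cd200r3 and Fcer1a) were detected in the summed mast cells. Their sum was 2246 and 2268 CPM, against 11308 and 21857 CPM in basophils. Mcpt8 gave only 21.7 and 94.4 CPM of the sum in mast cells. Whether reads from basophils enter the mast cell level was not tested. In basophils 3 of the 4 mast cell markers were under 1 CPM in both animals, with Tpsb2 at 0, and Cpa3 was at 744 and 495 CPM.

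Osm was also highest in basophils but reached many more subtypes. The basophil level was 8023 and 5061 CPM (6542 ± 2094, SD, n = 2), and 34 of 34 and 18 of 19 cells had it. Neutrophils had 1586 and 807 CPM and mast cells 1042 and 1249 CPM. These 2 subtypes overlapped each other and stood below basophils in both animals.

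The share of cells with Osm was higher in mast cells than in neutrophils in both animals, although the levels overlapped. Osm was found in 48.2% (exact 95% interval 34.7 to 61.97) of the female's neutrophils and 47.4% (36.01 to 59.1) of the male's. In mast cells it was found in 74.4% (57.9 to 86.96) and 90% (68.3 to 98.8). After thinning each cell to 100000 reads, where 1 read was enough to count a cell, the shares were 47.3% and 48.7% in neutrophils and 74.4% and 80% in mast cells. Thinning left out 1 neutrophil of the female and no mast cell.

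Macrophages carried Osm in at most 50% of the cells of a subtype in either animal. Mac III had 88.7 and 83.2 CPM, the closest match in level between animals among the macrophages, from 28.6% and 32.2% of its cells. Mac II, Mac IV and Mac V ran from 76.9 to 288.5 CPM, and their order differed between the animals. The DC II level was 324.6 CPM in the female, of which 1 cell gave 99.7%, against 2.75 CPM in the male. Mast cell II was alike, with 408 CPM in the female, 92.6% of it from 1 cell, and no read in the male.

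Lymphocytes and the other dendritic cells had little Osm. T cells had 0.999 and 3.50 CPM, B cells 11.98 and 21.2 CPM, and DC I and DC III at most 0.562 CPM. IL cells had more, at 45.2 and 24.3 CPM, from 3 of 9 and 2 of 5 cells. From mast cell II down to Mac III every neighbour in the order overlapped the next.

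Single basophils commonly held both cytokines. All 31 Il6-positive basophils of the female and 18 of the 19 of the male also had Osm, as nearly every basophil did. Across the basophils of 1 animal the log2(CPM + 1) values of the genes had a Pearson correlation of 0.29 over 34 cells and 0.13 over 19 cells, a weak relation between cells of the same library set. In mast cells 12 of 14 and 4 of 5 Il6-positive cells had Osm, where the product of the separate shares would give 10.4 and 4.5 cells.

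**Figure D2:**
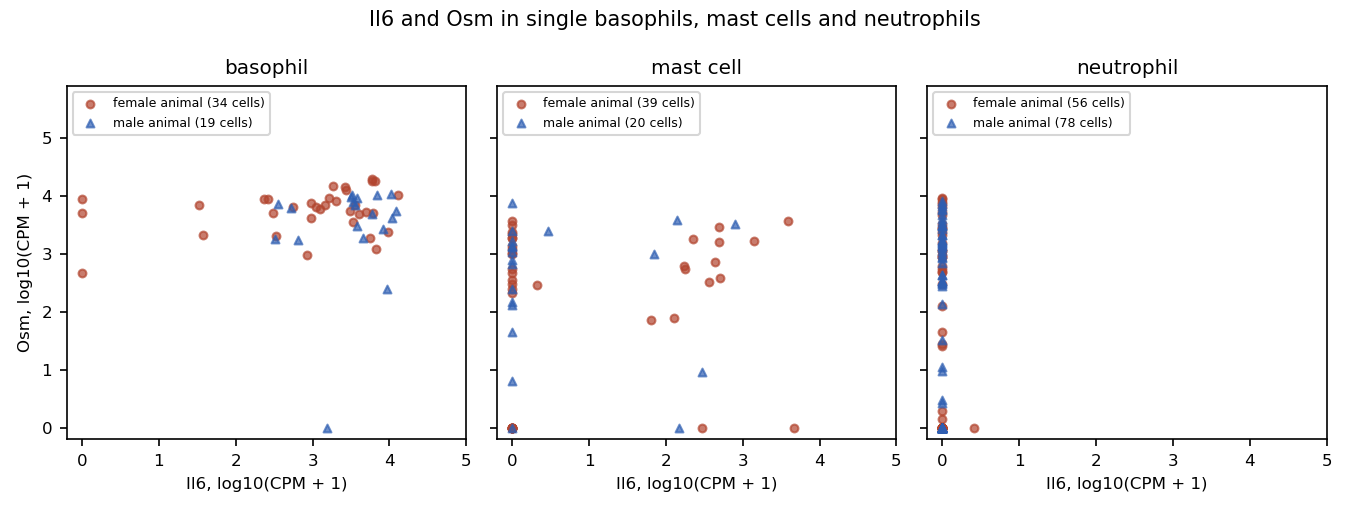
Il6 (horizontal) against Osm (vertical) in each basophil, mast cell and neutrophil, as log10(CPM + 1), with circles for the female and triangles for the male. Basophils spread along both axes, neutrophils lie at 0 on the Il6 axis except for 1 cell with 1 read, and mast cells include both kinds.

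Lif had its highest level in a different population. The cells labelled IL cell, in which the innate lymphoid markers Il7r, Gata3, Rora and Thy1 were all detected, had 166.1 and 107.6 CPM, from 5 of 9 and 4 of 5 cells. They lay above every other subtype in both animals. On the female's plate 1, 2 IL cells held 1 Lif read, against 2408 reads in 7 cells on plate 2. The IL cell values rest on 14 cells, and the level of Gata3, the defining factor of type 2 innate lymphoid cells, was 3943 and 3116 CPM in the same cells.

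Mac III came next for Lif with 7.90 and 14.03 CPM, from 6.59% and 10.6% of its cells. Of all Lif reads of an animal, Mac III held 30.4% and 75.4%, and IL cells 44.2% and 20.3%. In the male 16 of the 22 Lif-positive Mac III cells also had Osm, where the product of the shares gives 7.09 cells. In the female 2 of 12 did, against 3.43. Basophils of the female had 15.9 CPM, from 3 cells, and those of the male had no read. Every remaining subtype had at most 10.5 CPM in either animal, and B cells, NK cells and DC I had none. From Mac III down, nearly all neighbours in the order overlapped.

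Il6ra, the chain that binds interleukin 6, was highest in Mac V, at 645 and 458 CPM (551.7 ± 132.3, SD, n = 2), from 64 of 66 and 42 of 45 cells. Neutrophils, DC II, Mac II, T cells and Mac IV followed. Each overlapped the next in this order. Mac V nevertheless stood above DC II, Mac II, T cells and Mac IV without overlap, and Mac II above Mac IV.

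The share of cells with Il6ra differed among subtypes of like level. Mac II had 282.6 and 302.4 CPM from 26 of 27 and 20 of 20 cells. Neutrophils had 545.7 and 193.4 CPM from 31 of 56 and 39 of 78 cells, at a lower depth per cell. After thinning, again with 1 read as the minimum, the share was 96.3% and 100% in Mac II and 56.4% and 53.8% in neutrophils. The neutrophil with the highest level reached 7451 CPM, against a median of 86.6 CPM over the female's neutrophils.

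T cells carried Il6ra in 21 of 26 and 15 of 20 cells, at 357.1 and 199.8 CPM. B cells had 62.02 and 80.9 CPM from 13 of 39 and 7 of 26 cells. Mac III lay with the B cells at 85.8 and 65.6 CPM although 69.8% and 62.5% of its cells had the gene. In single Mac III cells the median was 37.7 and 16.1 CPM.

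Basophils were almost without Il6ra. The female's had 14.8 CPM, all of it in 1 of 34 cells with at least 5 reads, and the male's 19 basophils had no read. Mast cells had 51.7 and 58.4 CPM, from 16 of 39 and 10 of 20 cells. NK cells had no read in either animal, but only 12 cells were measured.

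Il6st was spread thinly over macrophages, T cells and dendritic cells. The highest means were in Mac V, with 91.5 and 38.3 CPM, and T cells, with 38.2 and 65.03 CPM. A single cell gave 55.3% of the Il6st reads in the female's Mac V, and without the highest cell of each animal T cells ranked first. The first 8 subtypes in the order overlapped in a chain. The largest share of cells with Il6st was in Mac III, 52.7% (exact 95% interval 45.2 to 60.2) and 53.8% (46.8 to 60.8), at 36.1 and 40.9 CPM.

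The ligand-rich cells were poor in the shared chain. Basophils had 0.0405 and 0.152 CPM of Il6st, and no basophil of the 53 reached 5 reads. Mast cells had 0.453 and 0.0726 CPM, from 1 of 59 cells. Neutrophils had 0.284 and 9.41 CPM, from 1 and 3 cells. Il6st was thus read mainly in other subtypes than the highest Il6 and Osm levels. For Il6ra this held in basophils only. Neutrophils, which ranked 2 by mean level for Osm, also ranked 2 by mean level for Il6ra, with 545.7 and 193.4 CPM. In the male they ranked 3 for Osm and 5 for Il6ra. Mast cells had 51.7 and 58.4 CPM of Il6ra.

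**Figure D3:**
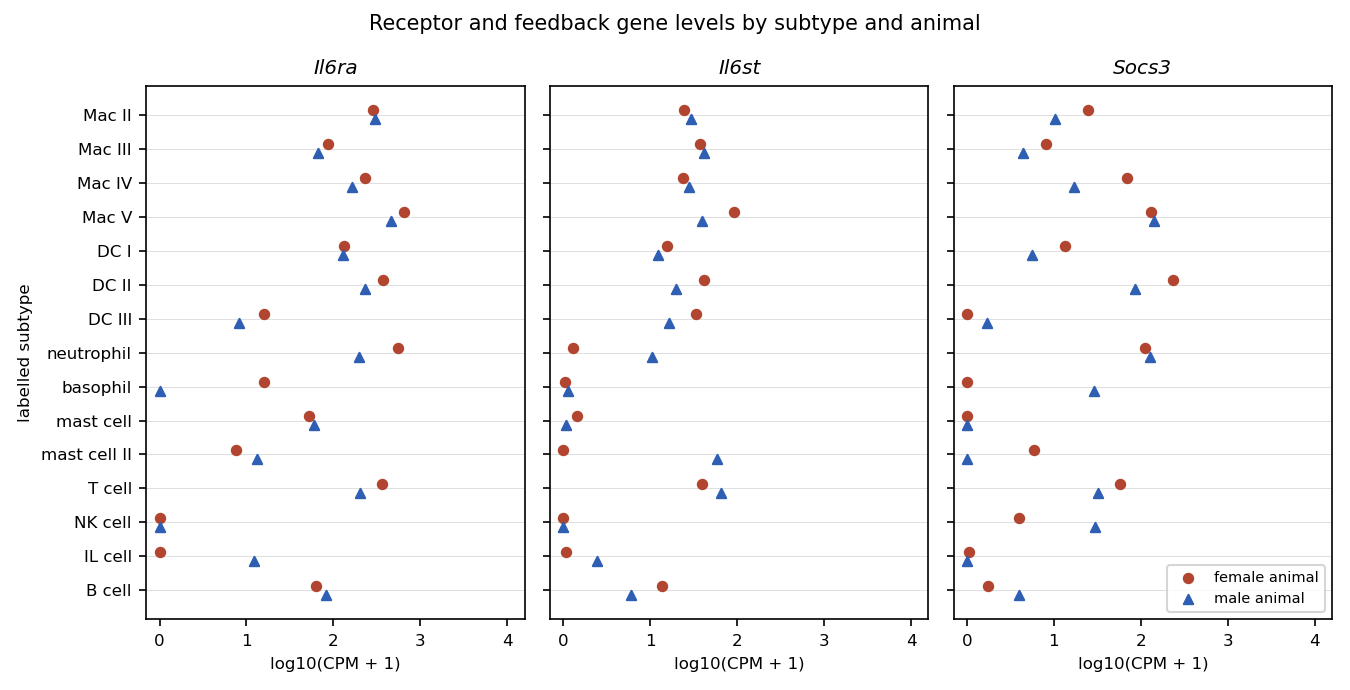
Level of each receptor chain and of Socs3 in the 15 tested subtypes, as log10(CPM + 1), with 1 point per animal (circle female, triangle male). Il6ra is highest in Mac V, neutrophils, DC II, Mac II, T cells and Mac IV, Il6st is at most 91.5 CPM in any subtype, and basophils and mast cells are near 0 for Il6st.

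Both receptor chains were found together in 20.1% of the 598 cells of the female and 19.7% of the 585 cells of the male. Mac III supplied 63 and 67 of them, or 34.6% and 32.2% of its cells. In Mac II it was 11 of 27 and 5 of 20 cells, and in T cells 8 of 26 and 6 of 20. No basophil, mast cell or NK cell had both, where 3 cells would be 8.82% and 15.8% of the basophils of the female and the male, and the exact 95% intervals end at 10.3% and 17.6%. In Mac III the product of the separate shares would give 66.99 and 70 cells, so the chains occurred together about as often as their shares alone give.

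**Figure D4:**
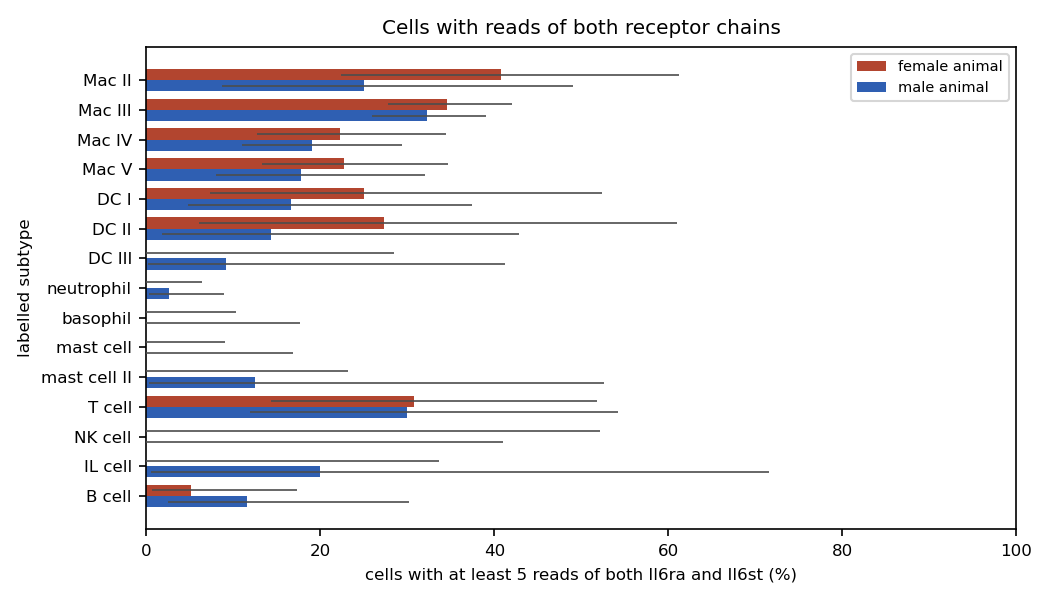
Percent of the cells of each subtype with at least 5 reads of both Il6ra and Il6st, with 1 bar per animal and exact 95% binomial intervals. Mac II, Mac III and T cells have the largest shares, and basophils, mast cells and NK cells have none.

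Socs3 was not highest in the subtypes highest for a ligand, or in those with the largest shares of cells with both receptor chains. The subtypes ranked 1 to 5 for Socs3 (DC II, Mac V, neutrophils, T cells and Mac IV) all ranked among the first 6 for Il6ra. Mac II, which ranked 4 for Il6ra, ranked 6 for Socs3. The likeness of these orders was not tested. DC II had 235.7 and 85.6 CPM, from 6 of 11 and 8 of 14 cells. Mac V had 130.5 and 142.5 CPM, from 28 of 66 and 17 of 45 cells, and neutrophils 111.8 and 126.3 CPM, from 16 of 56 and 23 of 78 cells. DC II overlapped Mac V, and Mac V stood above neutrophils in each animal. With TMM-scaled values neutrophils ranked first. Without the highest cell of each animal Mac V ranked first, at a mean of 103.2 CPM, and neutrophils came next at 96.4 CPM, both above DC II.

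In Mac III, the subtype with the most cells holding both receptor chains, Socs3 was at 7.13 and 3.43 CPM, from 14 and 12 cells, or 7.69% and 5.77%. Among Mac III cells with both chains, 7.94% and 7.46% had Socs3. Among the other Mac III cells it was 7.56% and 4.96%. Over all subtypes, 20.8% and 17.4% of the cells with both chains had Socs3, against 16.3% and 17.4% of the remaining cells. These pooled shares mix subtypes, and Mac III held 63 and 67 of the cells with both chains. Within other subtypes the direction varied. In Mac IV the share was 57.1% and 33.3% with both chains (14 and 15 cells), against 30.6% and 26.6%. DC I was also higher, at 50% and 25% (4 cells each), against 0% and 5%. Mac V was lower, at 33.3% and 37.5% (15 and 8 cells), against 45.1% and 37.8%. Mac II was lower too, at 9.09% and 0%, against 12.5% and 20%. None of this was tested. Mast cells held a single Socs3 read in 59 cells.

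The subtype pairs were then tested 1 at a time in the same edgeR fit, with standard errors taken as the log2 fold change over the square root of F. Basophils against mast cells gave no member called of 6, where 1.71% of all genes were called. At an unadjusted p under 0.05 edgeR had 2 of them, Il6 and Socs3, against 16.6% of all genes, and DESeq2 called 1, Socs3, against 15.6%. Il6 was 3064 and 5111 CPM in basophils against 198.1 and 30.1 CPM in mast cells, a log2 fold change of 5.38 ± 2.24 (SE) with an edgeR adjusted p of 0.241. For Osm the log2 fold change was 2.70 ± 1.97 with an edgeR adjusted p of 0.566. The animals did not overlap for either gene, and neither passed the test. Socs3 had no read in the female's basophils and 28.3 CPM in the male's, from 3 cells, and its edgeR adjusted p was 0.0812. The median log2 fold change of the 6 members was 4.04, against -0.15 over all genes tested. For 3 of the 6, Lif, Il6st and Socs3, the animals had opposite signs, and without the male's basophils the Socs3 value went from 10.41 to -2.48.

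Basophils against neutrophils gave 1 member called of 6, where 2.95% of all genes were called. At an unadjusted p under 0.05 edgeR had 3 of them, Il6, Il6ra and Il6st, against 19.8% of all genes. DESeq2 called the same 3, against 18.9% of all genes. Il6 was higher in basophils, with a fitted log2 fold change of 18.22 ± 3.65 (SE) and an edgeR adjusted p of 0.0121. Neutrophils held 1 Il6 read in all their cells, so the fitted size depends on the prior count. The pooled ratio was 345332, with an exact counting interval from 61980 to 1.36e+07. Without the female's or the male's neutrophil library the edgeR adjusted p was 0.0926 or 0.0862, and the call was lost. Il6ra went the other way, 14.8 and 0 CPM in basophils against 545.7 and 193.4 CPM in neutrophils, with an edgeR adjusted p of 0.0869. Il6st was also lower in basophils, with an edgeR adjusted p of 0.192. The median over the members was -0.47, against -0.36 over all genes.

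Neutrophils against Mac V gave no member called of 6, where 0.404% of all genes were called. Il6 alone was under 0.05 unadjusted in edgeR (12.99% of all genes) and was the 1 member called by DESeq2 (8.87% of all genes), lower in neutrophils. The Il6 value rests on the female's Mac V library, and without it the fitted log2 fold change went from -9.41 to -0.36. Osm was higher in neutrophils in both animals, 1586 and 807 against 237.4 and 104.4 CPM, a log2 fold change of 3.25 ± 2.02 with an edgeR adjusted p of 0.528. Il6ra differed by -0.12 ± 1.46 on the log2 scale, so its standard error leaves room for a difference in either direction. The median over the members was 0.05, against 0.00 over all genes.

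Mac V against Mac III also gave no member called of 6, where 0.442% of all genes were called. Unadjusted, edgeR had 2 under 0.05, Il6 and Socs3 (9.40% of all genes), and DESeq2 called 1, Il6 (5.79% of all genes). Il6 was higher in Mac V by 22.96 CPM in the female, while the male's difference was -0.0122 CPM. Il6ra was 645 and 458 against 85.8 and 65.6 CPM, and Socs3 130.5 and 142.5 against 7.13 and 3.43 CPM. Neither overlapped between subtypes, and the edgeR adjusted p was 0.602 and 0.518. The median over the members was 1.99, against -0.14 over all genes.

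Mac IV against Mac III gave no member called of 6, where 0.263% of all genes were called. Il6 and Lif were the 2 under 0.05 unadjusted in edgeR (7.89% of all genes) and the 2 called by DESeq2 (3.15% of all genes). Lif had 1 read in all Mac IV cells against 7.90 and 14.03 CPM in Mac III, with an edgeR adjusted p of 0.535. Il6 was higher in Mac IV in both animals, with an edgeR adjusted p of 0.401. The median over the members was 1.01, against 0.00 over all genes.

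T cells against B cells gave no member called of 6, where 0.0962% of all genes were called. In edgeR 1 was under 0.05 unadjusted, Socs3 (9.36% of all genes), and DESeq2 called 1, Lif (5.64% of all genes). That Lif call rests on 3 reads in the T cells of the female and 1 in those of the male, with no cell at 5 reads and no read in B cells. Il6ra was 357.1 and 199.8 CPM in T cells against 62.02 and 80.9 CPM in B cells, and Il6st 38.2 and 65.03 against 12.9 and 5.07 CPM. Both were higher in T cells in each animal, with edgeR adjusted p of 0.843 and 0.861. Socs3 was also higher in T cells in each animal, with an edgeR adjusted p of 0.527. No median is given here because Il6 had no read in either subtype.

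The other genes of the pathway were read from lists grouped by role. Of the other ligands, 1 of 6 tested was called over all subtypes (34.3% of all genes) and none in a single pair (0.0962% to 2.95% of all genes). That gene was Il27, the partner of Ebi3, with 22.7 CPM in the female's DC III and no read in the male's. Il11, Clcf1, Ctf1 and Cntf stayed at or below 5.17 CPM in every subtype of both animals. Ebi3, which pairs with Il27 or with the p35 chain, was at 182.6 and 278.4 CPM in Mac IV and at 240.8 and 191.99 CPM in B cells, and was not called.

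Of the other receptors, 2 of 4 tested were called over all subtypes (34.3% of all genes) and none in a pair. Lifr, the partner chain for leukemia inhibitory factor, had its highest mean in DC II, with 33.9 and 79.5 CPM, and an edgeR adjusted p of 9.12e-05. Il27ra was highest in T cells, with 66.8 and 120 CPM, and had an edgeR adjusted p of 0.00149. Osmr, the partner chain through which oncostatin M acts, was at most 2.59 CPM in any subtype of either animal. Il11ra1 was highest in Mac III, at 105.9 and 105.2 CPM, and was not called.

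Among the shedding and signalling genes, the kinases Jak1 and Jak2 and the transcription factor Stat3 were called over all subtypes (34.3% of all genes). Against mast cells, 1 of 9 rose in basophils (1.71% of all genes called), the kinase Jak2. It had 242.2 and 222.5 CPM against 5.76 and 18.2 CPM and a log2 fold change of 4.47 ± 0.85. Against neutrophils, 1 of 9 fell in basophils (2.95% of all genes called). It was Stat3, with 9.19 and 19.2 CPM against 246.4 and 229.5 CPM and a log2 fold change of -4.14 ± 0.95. The medians of the list in these comparisons were 0.90 and -0.39, against -0.15 and -0.36 over all genes.

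Of the feedback and Stat3-regulated genes, 8 of 12 were called over all subtypes (34.3% of all genes). Pim1, a survival kinase, was higher in basophils than in mast cells, with 911 and 1112 against 19.2 and 122.5 CPM. Bcl6, a transcriptional repressor, was lower in basophils than in neutrophils, with 1.64 and 1.22 against 36.9 and 52.8 CPM. Each was the only called gene of the 12 in its comparison (1.71% and 2.95% of all genes), with edgeR adjusted p of 0.00657 and 0.0281. The IL cells had the highest mean levels of the feedback genes Cish, at 880 and 826 CPM, and Socs1, at 117.3 and 104.99 CPM, while Socs3 in them was at 0.0690 and 0 CPM. Junb was higher in both Mac V and Mac IV than in Mac III, with edgeR adjusted p of 0.00111 and 0.0196. Those comparisons share the Mac III libraries.

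Immediate early and stress genes respond within minutes and are known to rise while tissue is taken apart. All 12 were called over all subtypes (34.3% of all genes). Their summed level was 20090 and 17813 CPM in neutrophils, 15209 and 17095 CPM in mast cells and 18648 and 13206 CPM in basophils, the 3 subtypes with the highest Osm. It was 1893 and 1366 CPM in Mac III and 1528 and 1735 CPM in T cells, the lowest means. The share of the ligand levels that arose during isolation was not tested. Between Mac V and Mac III, 4 of 12 rose in Mac V (Ier2, Egr1, Btg2 and Dusp1), where 0.442% of all genes were called. Between Mac IV and Mac III, 2 of 12 rose in Mac IV (Ier2 and Egr1), where 0.263% of all genes were called. Between basophils and mast cells only Btg2 was called (1.71% of all genes), at 1106 and 456 against 0.825 and 3.63 CPM. Atf3 was at 162.6 and 185.7 CPM in neutrophils and had a single read in all basophils. It was the only 1 of the 12 called between these subtypes (2.95% of all genes).

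For each member the genes with the most similar profile over the 15 subtypes were taken by the smaller of the 2 animals' Pearson correlations on log2(CPM + 1). For Il6 they were 1700006J14Rik (0.90), Alox8 (0.88) and Hormad2 (0.88). Alox8, a lipoxygenase, was at 280.4 and 287.96 CPM in basophils and 19.5 and 1.56 CPM in mast cells. Hormad2 was at 74.1 and 28.01 CPM in basophils, and in the RefSeq gene order it is the neighbour of Lif, which is itself the neighbour of Osm.

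For Osm the closest gene was Fosl2 (0.77), a member of the AP-1 family, at 373.5 and 281.9 CPM in neutrophils and 315.96 and 213.1 CPM in basophils. For Lif it was Npas2 (0.80), highest in IL cells. For Il6ra it was Cd300c2 (0.86), and the myeloid lysozyme gene Lyz2 (0.83) came next. Il6st was closest to Insig1 (0.79) and Socs3 to Retreg1 (0.75). These correlations rest on 15 subtypes measured in the same libraries, without a test. The genes depended on the pseudocount. With log2(CPM + 10) none of the 3 closest genes remained for Il6 or Osm, 1 of 3 for Il6st and Socs3, and 2 of 3 for Lif and Il6ra. The closest were then Samd13 (0.96) for Il6, Fgf7 (0.79) for Osm, Lyz2 (0.85) for Il6ra and Ifitm6 (0.78) for Socs3, while Npas2 stayed first for Lif and Insig1 for Il6st.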

How the data were processed

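Plate-based Tn5 single-cell RNA-seq of 1183 mouse lung cells was used. The authors deposited raw counts of reads for each gene in each cell. Per the submitters' processing notes, STAR 2.5.2b, HTSeq 0.10 and the build GRCh38 were used. GRCh38 is the name of a human assembly, so the build is unsettled here and no coordinates of the counted genes are given. The annotation, strand setting and filters are not given in the sources used here. No molecular identifiers are named. Antisense and overlapping genes may share reads.

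Counts were summed per animal and labelled subtype into 30 libraries (15 subtypes of 5 or more cells per animal; Mac I, with 1 cell, was left out) and fitted in edgeR 4.0.16 (R 4.3.3) with TMM, filterByExpr and 1 coefficient per subtype, leaving 15600 genes. The steps were run on simulated data with a smaller spread than these data and no difference between animals. That run checks the steps and not how reliably the tests here find differences. Libraries of 1 animal share that animal, which pairs them across subtypes; their deviations correlated by -0.06 to 0.08 (median 0.03, 105 pairs of libraries). Members, lists and tests were chosen with earlier results of these data known. From each list, called genes with at least 20 CPM in the higher subtype were named, at most 3 per comparison; other values of list genes (Ebi3, Il11ra1, Cish, Socs1, genes near 0) and the fourth called stress gene, Dusp1, were chosen after they were seen. For each member, up to 3 genes of most similar profile were named. Female CD45 plate 1 came from run DC28 and the other CD45 plates from DC35. DESeq2 1.42.0 was an alternative. The result of 1 gene of the signalling list is not reported here.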

Additional observations from a re-analysis of the deposited data

Results flagged for a closer look

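Of the 36 member differences in the 6 subtype pairs, 8 had opposite signs in the 2 animals, and none of these differences between animals was tested. In 5 of the 8 the higher subtype was at or below 1 CPM in at least 1 animal. The other 3 follow. Lif was higher in basophils than in neutrophils in the female (15.9 CPM, basophil minus neutrophil) and lower in the male (-3.45 CPM). Il6st in Mac V minus Mac III was 55.4 CPM for the female but -2.66 CPM for the male. Osm in Mac IV minus Mac III was -11.8 CPM for the female but 122.7 CPM for the male.

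The single cell labelled Mac I, from the male, entered no comparison. Osm was at 811 CPM, Il6ra at 74.995 CPM and Socs3 at 163.5 CPM in it.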

How the results depend on the processing

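The share of genes called depended on the tool and the run. In the order basophil against mast cell, basophil against neutrophil, neutrophil against Mac V, Mac V against Mac III, Mac IV against Mac III and T cell against B cell, it was 1.71%, 2.95%, 0.404%, 0.442%, 0.263% and 0.0962% of the genes tested in edgeR. DESeq2 gave 15.6%, 18.9%, 8.87%, 5.79%, 3.15% and 5.64%. On the run shared by both animals it was 0.641%, 1.36%, 0.0793%, 0.178%, 0.0595% and 0.205%. With only the compared subtypes in the fit it was 0.846% for neutrophil against Mac V, 9.23% for Mac V against Mac III, 11.96% for Mac IV against Mac III and 1.10% for T cell against B cell. The cause was not tested.

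Each of the 16 libraries of the 8 paired subtypes was left out in turn, the lone library of a subtype then being assumed to vary like the others. In the same order the shares ran from 0.587 to 1.04%, 0.880 to 2.66%, 0.0120 to 0.658%, 0.0965 to 0.138%, 0.00603 to 0.103% and 0 to 0.0664%, and from 24.05 to 31.5% over all subtypes. Every left-out library of a pair moved its count by over 1.5 times, except the male's neutrophils against basophils and the female's B cells. Without either T cell library edgeR called no gene between T and B cells, with 994 and 893 genes at an unadjusted p under 0.05. Socs3 in basophils against mast cells had a log2 fold change of -2.48 without the male basophils and ran up to 12.80 without another library.

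With the animal as a replicate block, 28.7% of genes were called over all subtypes in place of 34.3%, and in the pairs 1.71%, 3.04%, 0.487%, 0.506%, 0.276% and 0.115%. Among the members' tests given above, the block changed only the Il6st call. DESeq2 called Il6ra and Il6st as lower in basophils than in neutrophils (adjusted p = 0.000595 and 0.00943), where it called 18.9% of all genes. It called Socs3 as higher in basophils than in mast cells (adjusted p = 4.66e-05), where it called 15.6% of all genes. The edgeR fits with only the compared subtypes also called members. Il6 and Osm were higher in basophils than in mast cells (adjusted p = 0.0311 and 0.0231), with 2.62% of all genes called. Il6ra and Socs3 were higher in Mac V than in Mac III (0.00838 and 0.00827), with 9.23% of all genes called. Against Mac III, Il6 and Il6ra were higher and Lif lower in Mac IV (0.0195, 0.0378 and 0.0127), with 11.96% of all genes called. Without the female's basophils the Il6ra log2 fold change went from -2.76 to -14.56 against mast cells and from -5.84 to -17.73 against neutrophils. That of Socs3 against mast cells went from 10.41 to 11.36. The basophil library left is then the male's, with no Il6ra read and with Socs3 in 3 cells, so these sizes rest on the library removed. Basophils stayed the highest subtype for Il6 and Osm, IL cells for Lif and Mac V for Il6ra under the 6 other ways of computing a level, whereas the highest subtype changed for Il6st and Socs3.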
